A study of Mus musculus with 4 samples.

Results

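The genes examined encode 8 transcription factors that set up and maintain the hepatocyte programme: Hnf4a, Foxa1, Foxa2, Foxa3, Cebpa, Onecut1, Onecut2 and Prox1. Their open chromatin was read from lists of ATAC peaks, 1 list from a Mertk knockout liver library and 1 from a wild-type liver library. A peak belonged to a gene where the authors' annotation named that gene and called the peak promoter or distal. By this rule the 8 genes held 76 of the 106319 knockout peaks and 16 of the 72302 wild-type peaks. They are 8 of 25458 genes with such a peak in either library.

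Both livers came from mice with a ligated bile duct, a model of cholestasis and liver fibrosis. The compared groups were Mertk knockout with bile duct ligation and wild type with bile duct ligation, and no liver without ligation was analysed here. The labels give neither the construction of the knockout allele, nor the animals behind a library, their sex or age, or the time after ligation. Nuclei from frozen liver were run on the 10x Genomics Multiome assay, in which a transposase cuts accessible DNA inside each nucleus and the fragments are sequenced. Each genotype had 1 ATAC library, so the differences below describe these libraries, and no test between genotypes was possible.

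Hepatocyte identity rests on a circuit of factors that bind each other's regulatory regions and those of liver genes. FOXA proteins are pioneer factors that can bind their sites in closed chromatin, and HNF4A, C/EBP alpha and ONECUT factors bind many of the same enhancers. None of the 8 genes is active in hepatocytes alone. Cebpa also acts in the myeloid lineage, Onecut1, Onecut2, Foxa1 and Foxa2 in bile duct cells, and Prox1 in lymphatic endothelium. The peak lists are not split by cell type, so fewer cells of a type and less open chromatin per cell cannot be told apart.

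Sequences just before the transcription start sites are shown as background to the promoter results, and no peak count was made from them. For 7 of the 8 genes, all but Onecut2, RefSeq promoter windows of the GRCm38.p6 build were matched, 11 windows in all. The upstream 250 bases of 6 of them are shown, 5′ to 3′ on the strand of the gene. They were chosen to set windows touched by peaks of both libraries beside windows touched by a knockout peak alone. At Foxa1 the 250 bases shown lay between 2 knockout promoter peaks, and no called peak of either library covered them. Capitals mark matches, on either strand, to TGTTTAC or TGTTTGC (forkhead), ATTGAT or ATCGAT (ONECUT), and TATAAA. Matches to CAAAGTCCA or CAAAGGTCA (HNF4), TTGNNCAA (C/EBP) were searched too, and none of the 11 windows held either. The windows lie at chr2:163506607-163506856 (Hnf4a, upstream start, plus strand), chr2:163546905-163547154 (Hnf4a, downstream start, plus strand), chr7:35119043-35119292 (Cebpa, plus strand), chr12:57546112-57546361 (Foxa1, minus strand), chr7:19023540-19023789 (Foxa3, minus strand) and chr9:74861671-74861920 (Onecut1, plus strand).
Hnf4a upstream start: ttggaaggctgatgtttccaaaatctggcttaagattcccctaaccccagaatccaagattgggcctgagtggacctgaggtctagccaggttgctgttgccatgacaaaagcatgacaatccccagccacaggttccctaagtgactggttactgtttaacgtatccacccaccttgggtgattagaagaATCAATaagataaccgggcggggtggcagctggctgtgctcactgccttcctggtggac
Hnf4a downstream start: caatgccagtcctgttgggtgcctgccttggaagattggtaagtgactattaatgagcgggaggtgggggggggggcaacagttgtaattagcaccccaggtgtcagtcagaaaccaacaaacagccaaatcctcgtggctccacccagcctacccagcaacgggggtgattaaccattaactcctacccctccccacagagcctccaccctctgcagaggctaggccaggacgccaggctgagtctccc
Cebpa: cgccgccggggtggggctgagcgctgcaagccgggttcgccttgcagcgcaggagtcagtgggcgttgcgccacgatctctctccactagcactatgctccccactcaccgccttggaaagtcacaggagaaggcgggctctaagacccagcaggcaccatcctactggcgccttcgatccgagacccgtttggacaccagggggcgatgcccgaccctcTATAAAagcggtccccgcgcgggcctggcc
Foxa1: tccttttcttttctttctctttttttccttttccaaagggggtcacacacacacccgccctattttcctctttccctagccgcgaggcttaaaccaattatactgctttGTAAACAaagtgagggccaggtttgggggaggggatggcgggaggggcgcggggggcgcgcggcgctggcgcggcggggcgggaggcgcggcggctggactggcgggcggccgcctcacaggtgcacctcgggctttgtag
Foxa3: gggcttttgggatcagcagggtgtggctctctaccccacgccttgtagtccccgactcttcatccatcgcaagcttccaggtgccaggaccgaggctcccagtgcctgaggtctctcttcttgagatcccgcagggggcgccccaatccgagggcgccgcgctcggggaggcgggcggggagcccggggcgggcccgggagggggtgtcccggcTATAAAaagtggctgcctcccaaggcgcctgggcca
Onecut1: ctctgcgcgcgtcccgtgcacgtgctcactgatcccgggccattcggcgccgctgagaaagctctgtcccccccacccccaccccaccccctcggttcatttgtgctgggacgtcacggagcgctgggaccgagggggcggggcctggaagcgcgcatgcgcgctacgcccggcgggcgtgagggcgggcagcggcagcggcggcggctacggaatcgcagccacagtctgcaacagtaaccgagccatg
The Hnf4a upstream start has an ONECUT match beginning 59 bp before the start. The Foxa1 window has a forkhead match beginning 141 bp before its start, outside any called peak. Forkhead letters are in 2396 of all 32851 RefSeq windows (7.29%), ONECUT letters in 2430 (7.40%) and TATAAA in 4063 (12.4%). Of the 11 windows, which belong to 7 of the 8 genes, 2 held forkhead letters, 2 ONECUT letters and 4 TATAAA. The HNF4 letters are in 0.807% and the C/EBP letters in 5.65% of all windows. These matches describe the letters and say nothing of binding.

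Across the 8 genes, open chromatin was far more extensive in the knockout library. They had 76 knockout peaks and 16 wild-type peaks, a 4.75-fold number, whereas the whole lists differed 1.47-fold. Summed peak length was 62.9 kb in the knockout library and 12.9 kb in the wild-type library, with mean widths of 828 and 809 bp, so the number of peaks and not their width differed. Promoter peaks were called for all 8 genes in knockout liver and for 3, namely Hnf4a, Cebpa and Prox1, in wild-type liver. Promoters called open in knockout liver alone were thus those of 5 genes, those called in both libraries 3, and those called in wild-type liver alone 0. Of 17563 genes with a promoter peak in either list, 15.4% had it in knockout liver alone, 81.4% in both and 3.17% in wild-type liver alone. Foxa1, Foxa3 and Onecut2 had no wild-type peak of any kind, as had 13.3% of the 24914 genes with a knockout peak.

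**Figure D1:**
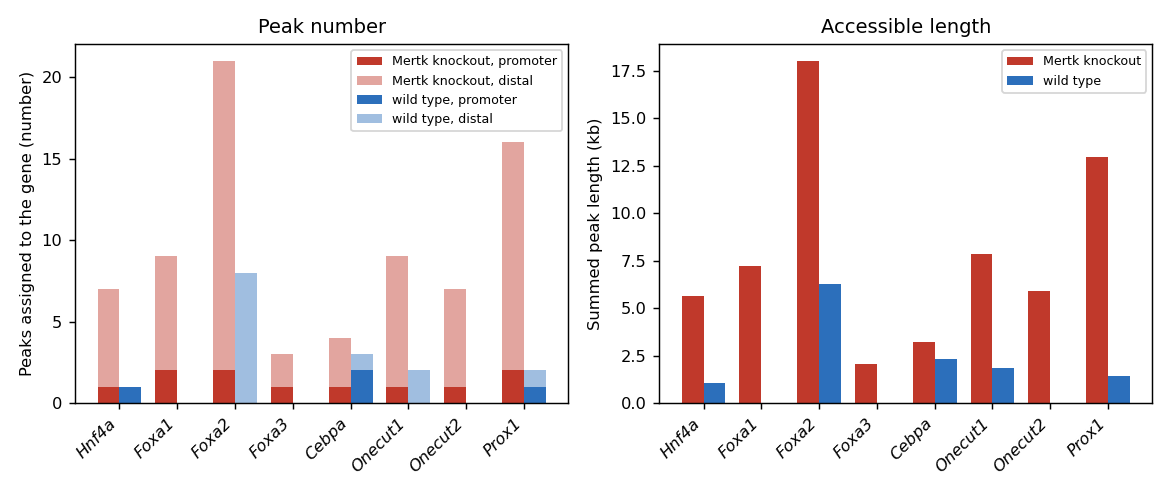
Number of peaks (left, promoter and distal stacked) and summed peak length in kb (right) for each factor gene, with the Mertk knockout library in red and the wild-type library in blue. The knockout bar is the taller for all 8 genes, and it is closest to the wild-type bar at Cebpa, with 4 and 3 peaks.

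A ratio of accessible length was formed for genes averaging at least 2 kb over both libraries, as the log2 of knockout over wild-type length with 1 kb added to each. It was centred on its median over 14692 such genes, 0.39, because most genes had more called peak length in the knockout library. A centred ratio of 1 or more counted as higher and of -1 or less as lower. This is a rule of size, with no test behind it. By it 5 of the 7 measured factor genes were higher in the knockout library and 0 were lower. A gene listed at 0 in the wild-type library reaches the length minimum through knockout peaks alone and then counts as higher by construction. That holds for Foxa1 and Onecut2, and not for Hnf4a, Onecut1 and Prox1. Of all 14692 measured genes, 10.3% were higher and 4.08% lower, that is 1514 and 600 genes. That split moved with the centring, to 2884 and 197 genes without it and to 1131 and 999 when scaled by total covered length, while the factor genes stood at 6 and 0, and at 5 and 0. The 7 genes had a median centred ratio of 1.31, and all measured genes have 0 by construction. Foxa3, with a mean of 1.04 kb, fell under the length minimum.

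**Figure D2:**
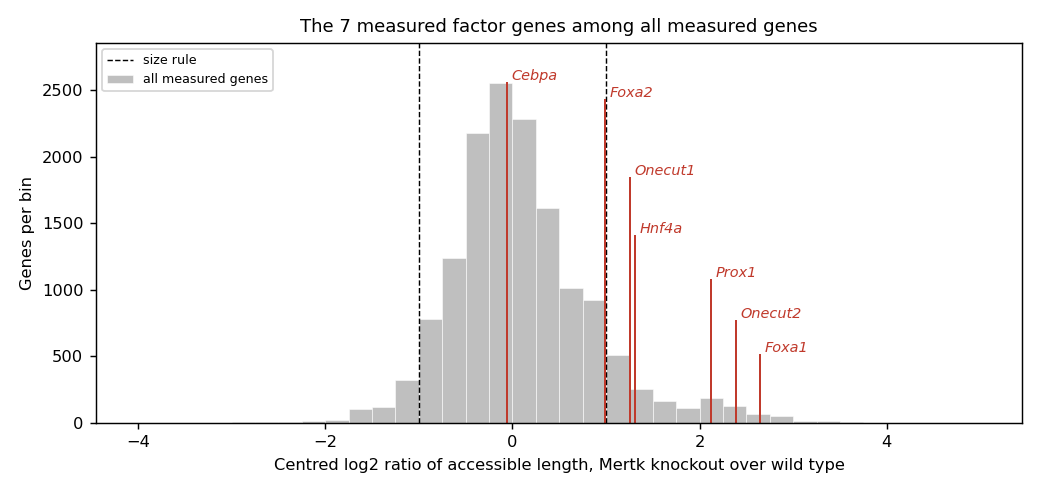
Number of genes (y axis) by centred log2 ratio of accessible length, Mertk knockout over wild type (x axis), for all 14692 measured genes in grey, with the 7 measured factor genes as red lines whose heights are arbitrary and dashed lines at the size rule of 1 and -1. Cebpa sits in the tallest bin at -0.06, Foxa2 at 0.99 just inside the line, and the other 5 from 1.25 to 2.64 beyond it.

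Hnf4a encodes the nuclear receptor HNF4 alpha, which binds fatty acids and drives genes of lipid, bile acid and clotting factor synthesis. It had 7 peaks and 5.65 kb in the knockout library, against 1 peak and 1.04 kb in the wild-type library, a centred ratio of 1.31. The promoter was open in both. Its peak lay on chromosome 2 at 163546643 to 163547528 in the knockout library and at 163546575 to 163547618 in the wild-type library, and the knockout peak lay wholly inside the wild-type peak. This is the downstream start shown above, which is the main start in adult liver. The other 6 knockout peaks lay 1.72 to 27.1 kb past the start, 5 of them inside the gene and 1 beyond its end, and none overlapped a wild-type peak.

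Hnf4a has a further start upstream, known for its use in pancreas and fetal liver, and RefSeq begins the gene there. A knockout peak at 163506318 to 163507222 covered all 300 bases of that RefSeq window. No wild-type peak touched it, and the nearest was 9290 bp away. The authors' annotation gives this peak to the antisense gene Hnf4aos and to R3hdml, so it is not among the 7 peaks above. Thus the downstream start was open in both libraries and the upstream start in the knockout library alone.

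The 3 Foxa genes encode forkhead proteins that open chromatin at liver enhancers. By the authors' annotation all had at least 1 promoter peak in knockout liver and none had any in wild-type liver. Foxa1 (chromosome 12, 57540628 to 57548029) had 9 knockout peaks summing to 7.20 kb and was listed at 0 in the wild-type library. Its 2 promoter peaks stood on either side of the start, at 57545302 to 57546080 and 57546406 to 57547297, and 7 more lay between 3.54 and 40.7 kb downstream of it. The wild-type peak nearest to any of them was 274 kb away, so the gene sat in a long stretch with no called wild-type peak. Its centred ratio of 2.64 is set by the added 1 kb as well as by the data, since the wild-type value is 0.

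Foxa2 (chromosome 2, 148042877 to 148046969) had the most peaks of the 8 genes in each library, 21 in the knockout library and 8 in the wild-type library. Summed length was 18.03 kb in the knockout library and 6.29 kb in the wild-type library, a centred ratio of 0.99, just under the size rule. The libraries differed by position. Around the start and downstream, the knockout library had 2 promoter peaks (148045721 to 148046456 and 148046703 to 148047326) and 7 peaks reaching 33.4 kb past the start, and the wild-type library had none. Upstream the lists met: 6 of 12 knockout peaks and 6 of 8 wild-type peaks overlapped.

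The shared Foxa2 regions lay 1.76 kb upstream and then at 75.6, 95.1, 103, 125 and 138 kb upstream of the start, as measured to the centre of the knockout peak. Each shared between 582 and 887 bp. The remaining 2 wild-type peaks were neighbours, at 148073031 to 148073466 and 148073577 to 148074222, about 26.3 and 26.9 kb upstream, and the nearest knockout peak was 5774 bp from them. The authors assigned all of these peaks to Foxa2 alone, by distance, and whether the far ones act on Foxa2 was not measured.

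Foxa3 (chromosome 7, 19013283 to 19023539) had 3 knockout peaks summing to 2.08 kb and was listed at 0 in the wild-type library. Its promoter peak lay at 19023151 to 19023769. A wild-type peak began 150 bp from it, at 19023920 to 19024802, and overlapped a knockout peak at 19023899 to 19024726. Both were assigned to the promoter of the adjoining gene Sympk, which encodes an RNA 3′-end processing scaffold. The Sympk promoter was therefore open in both libraries and the adjoining Foxa3 promoter was called in the knockout library alone. That wild-type Sympk peak lay 381 bp from the Foxa3 start, and the authors' assignment keeps it out of the Foxa3 count. The distal Foxa3 peak at 19012824 to 19013387, also assigned to Irf2bp1, came within 45 bp of a wild-type peak.

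Cebpa encodes C/EBP alpha, a basic leucine zipper factor of hepatocytes, fat cells and myeloid cells, and it stood apart from the others in value. It had 4 knockout peaks and 3 wild-type peaks, with 3.20 kb in the knockout library and 2.34 kb in the wild-type library, a centred ratio of -0.06. The peak over its start (chromosome 7, 35118781 to 35119614 in the knockout library and 35118792 to 35119611 in the wild-type library) had centres 4 bp apart. A distal peak about 12.7 kb upstream was shared as well, over 504 bp. The wild-type library held a further promoter peak at 35117987 to 35118643 that the knockout library lacked, the nearest knockout peak being 137 bp away. The knockout library in turn had unshared peaks 2.55 and 11.4 kb upstream.

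Onecut1 and Onecut2 encode cut-homeodomain factors of the developing liver and bile ducts, Onecut1 being known as HNF6. Onecut1 (chromosome 9, 74861921 to 74889648) had 9 knockout peaks and 7.86 kb, against 2 wild-type peaks and 1.83 kb, a centred ratio of 1.25. Its promoter peak, at 74861374 to 74862223, was found in the knockout library alone, and the wild-type peak nearest to the start lay 9.05 kb from it. Both wild-type peaks were shared, 1 inside the gene 9.27 kb past the start and 1 beyond its end at 43.2 kb. Onecut2 (chromosome 18) had 7 knockout peaks and 5.88 kb, and was listed at 0 in the wild-type library. They ran from 2.27 kb upstream to 42.5 kb past the start, and the nearest wild-type peak to its start was 149 kb away.

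Prox1 encodes a prospero-type homeodomain factor that restrains or redirects HNF4 alpha-dependent genes in hepatocytes and specifies lymphatic endothelium. On chromosome 1 (190118035 to 190170827) it had 16 knockout peaks and 12.99 kb, against 2 wild-type peaks and 1.44 kb, a centred ratio of 2.12. The promoter peak at the first start was shared, at 190170120 to 190170933 in the knockout library and 190170222 to 190171160 in the wild-type library. A second promoter peak, at 190168896 to 190169643, touched another RefSeq start window and was found in the knockout library alone. A group of 6 knockout peaks lay inside the gene 35.6 to 49.6 kb past the start, where the wild-type library had none. All 18 Prox1 peaks of both libraries were also assigned to a non-coding neighbour, Prox1os or Gm28172.

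**Figure D3:**
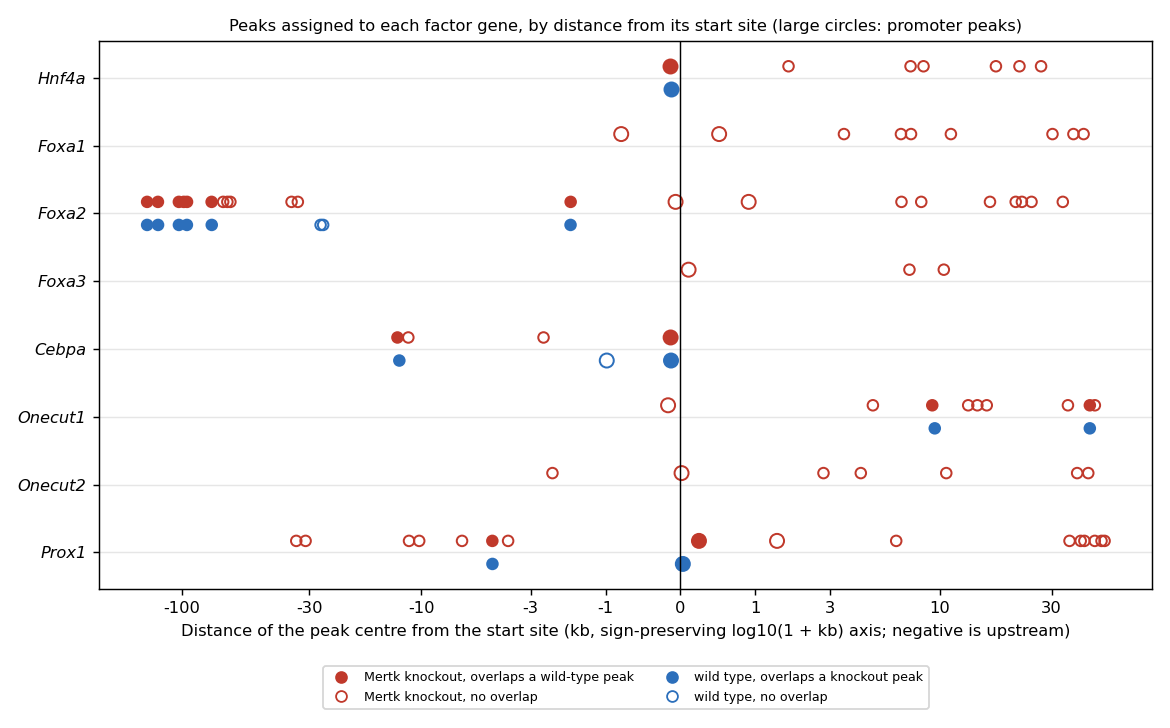
Each row is a factor gene, and each circle a peak at the distance of its centre from the gene's start site in kb (x axis, sign-preserving log10 scale, upstream negative), with the Mertk knockout library in red above the wild-type library in blue. Filled circles overlap a peak of the other library and large circles are promoter peaks. Of the red circles 13 of 76 are filled and of the blue circles 13 of 16, and the far upstream filled circles belong to Foxa2.

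Most knockout peaks had no wild-type counterpart, whereas most wild-type peaks had a knockout one. Of the 76 knockout peaks, 13 overlapped a wild-type peak by at least 1 bp (17.1%, exact 95% interval 9.43% to 27.5%). Of the 16 wild-type peaks, 13 overlapped a knockout peak (81.2%, exact 95% interval 54.4% to 96.0%). Over all promoter and distal peaks, 49.5% of knockout and 72.5% of wild-type peaks were shared. The knockout share of the 8 genes thus lay below that of all knockout peaks. The wild-type share was near that of all wild-type peaks, which its interval includes, and 6 of its 13 peaks belonged to Foxa2. The intervals cover counting error only, and neighbouring peaks of a gene are not independent. For promoter peaks, 3 of 11 knockout and 3 of 4 wild-type peaks were shared, against 78.9% of all knockout and 93.5% of all wild-type promoter peaks. For distal peaks, 10 of 65 knockout and 10 of 12 wild-type peaks were shared, against 44.3% and 67.7% of all.

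The counts by place follow, with no share by place over all peaks to set them against. Of knockout peaks, 8 of 23 upstream peaks and 3 of 11 promoter peaks were shared, and 1 of 25 inside the genes and 1 of 17 downstream. The wild-type library had 10 upstream peaks, 4 at promoters, 1 inside a gene and 1 downstream. Of the 8 shared upstream peaks 6 belonged to Foxa2, and outside Foxa2 2 of 11 upstream knockout peaks were shared. Where both lists had a peak, the positions were close: the 13 pairs had centres a median of 36.5 bp apart (range 3 to 240.5 bp), and all 52401 shared knockout peaks had a median of 37.5 bp.

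The RefSeq windows gave the same comparison without the authors' assignment of peaks to genes. Of the 11 windows, 7 were touched by a knockout peak alone, 3 by peaks of both libraries, 0 by a wild-type peak alone and 1, a downstream start of Foxa2, by neither. Among all 32851 windows, 8.33% were touched in the knockout library alone, 40.2% in both and 1.73% in the wild-type library alone. The 3 windows open in both belonged to Hnf4a (downstream start), Cebpa and Prox1. Cover was partial at Foxa1, where the knockout peak reached only 19 of 300 bases, all of them past the start. The Foxa3 window ended 130 bp from the nearest wild-type peak, the one assigned to Sympk.

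The start windows of the factor genes were rich in CpG dinucleotides, with a median of 18 in the upstream 250 bases against 6 over all RefSeq windows. Windows were split at 16 CpG, the median of those open in both libraries, a split chosen after the values were seen. Among all windows open in either library, 6.78% of 7689 CpG-rich and 25.1% of 8816 CpG-poor ones were open in the knockout library alone. Among the factor windows the counts were 4 of 6 CpG-rich ones, those of Foxa1, Foxa3, Onecut1 and a start of Foxa2, and 3 of 4 CpG-poor ones. At Foxa1 the 19 covered bases all lay past the start, outside the 250 bases in which CpG were counted.

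Other regulators of liver genes showed a milder surplus. The reported list comprised 42 genes, of which 36 were measured. By the size rule 8 of them were higher in knockout liver and 0 lower, where 10.3% of all measured genes were higher and 4.08% lower. The other 28 lay inside the rule, with Gata4 highest at 0.99 and Xbp1 lowest at -0.60, and the median centred ratio of the list was 0.51. Ppara, a fatty acid receptor, had 22 knockout and 4 wild-type peaks, and Esrrg, an orphan receptor, 26 and 5. Nr5a2 and Nr1h4, which encode the bile acid regulators LRH-1 and FXR, had 38 and 13, and 20 and 6. Zbtb20, Rora, Tead1 and Yap1 made up the rest of the 8, at 1.04 to 1.25. Nr2f1 (0.02), Cebpd (-0.03) and Foxo3 (0.05) lay nearest to the median gene. Cebpb and Cebpg, the other C/EBP genes listed, were at -0.10 and -0.18, near Cebpa. Hepatocyte markers, listed further below, lay closer to the factor genes, with a median centred ratio of 1.21. Of the 23 measured, 15 were higher by the size rule and 0 lower. Measured markers listed at 0 in the wild-type library counted as higher by construction, as Foxa1 and Onecut2 did.

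**Figure D4:**
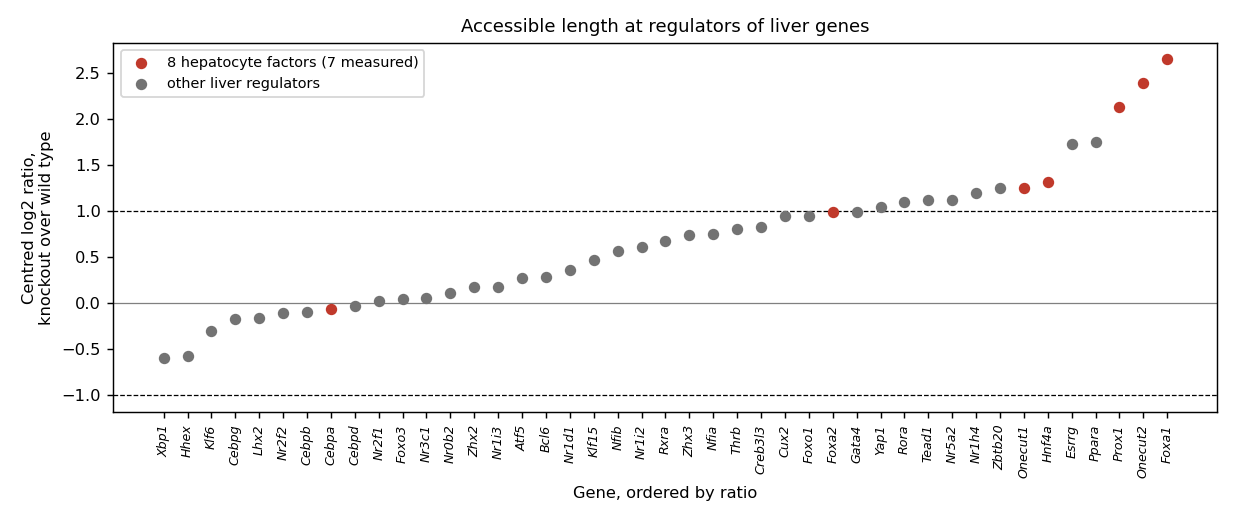
Centred log2 ratio of accessible length, Mertk knockout over wild type (y axis), for 36 measured other liver regulators in grey and the 7 measured factor genes in red, ordered by ratio along the x axis, with dashed lines at the size rule. The red points from Onecut1 to Foxa1 lie at 1.25 or more, with Prox1, Onecut2 and Foxa1 at the right-hand end and Cebpa among the C/EBP genes near 0.

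Each of the 8 factor genes was set beside the reported regulator nearest to it in accessible length over the 2 libraries, by distance on the log2 scale with 1 kb added. Cebpa was nearest to Nr2f2 (distance 0.04) and Foxa2 to Gata4 (0.12), which had 21 knockout and 7 wild-type peaks. Foxa3 was nearest to Sox9 (0.16). Yap1 was the nearest reported gene to Onecut1 (0.25), Hnf4a (0.46) and Prox1 (0.93). Onecut2 (1.13) and Foxa1 (1.28) were the farthest from any reported regulator, the nearest to both being Creb3l3. With 2 libraries this likeness rests on 2 values per gene.

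Depth and cell type markers moved with these results, and their part in them was not tested. Called nuclei numbered 5339 in the knockout and 5828 in the wild-type library, with 83996145 and 40858512 ATAC fragments, a 2.06-fold difference, of which 46.0% and 33.7% fell in peaks. The RNA side ran the other way, with a median of 1232 and 3769 UMIs per nucleus, and 44 called barcodes occurred in both libraries. The counts below of markers with more or fewer knockout peaks have no share over all genes to set them against. The whole knockout list held 1.47-fold the number of wild-type peaks. Hepatocyte markers had 204 knockout and 48 wild-type peaks, with a promoter peak for 26 and 3 of the 26 genes. More knockout than wild-type peaks stood at 24 of the 26, and fewer at 2, Ttr (3 and 4) and Ass1 (5 and 7). In the wild-type library 10 of the 26 were listed at 0, including Gc, Cps1 and Serpina1b, which encode secreted or metabolic hepatocyte proteins. Bile duct markers had 43 and 23 peaks, with more knockout than wild-type peaks at 7 of 13 genes and fewer at 2, including Pkhd1 (9 and 0), Bicc1 (10 and 3) and Epcam (2 and 3), with Krt7 at 0 in both and Krt19 at 1 in both. Endothelial and lymphatic markers had 169 and 109 peaks, with more in knockout at 10 of 12 genes and fewer at 1, among them Flt4 at 14 and 3, Stab2 at 27 and 13, Pdpn at 3 and 7, and Ccl21a at 0 in both. Neutrophil markers had 39 and 40 peaks and were split, with more knockout than wild-type peaks at 7 of 12 genes, such as Cxcr2 and S100a9 (5 and 3 each), and fewer at 4. Among the 6 measured genes of that list, the 3 largest absolute ratios were those of Ltf (3 and 6), Csf3r (7 and 11) and Cebpe (6 and 8). These 3 were lower in knockout. Macrophage markers had 101 and 110, with more in knockout at 6 of 12 genes, such as Clec4f (5 and 2), and fewer at 4, of which Vsig4 (1 and 8), Itgam (8 and 15) and Ccr2 (5 and 9) had the largest absolute ratios of the list. Ttr, Ass1, Cxcr2, S100a9 and Clec4f were chosen after their values were seen.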

How the data were processed

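Per the file headers, the authors ran cellranger-arc 2.0.2 on each library against an mm10 reference, so peaks were called per library. The deposited lists give positions, and a deposited annotation assigns peaks to genes; neither peak heights nor calling parameters were used here. Depth came from raw counts in the deposited table of barcodes.

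Peaks outside the assembled autosomes and sex chromosomes were dropped, and each pair of peak and gene was counted once. Sharing means an overlap of at least 1 bp with a peak of the other library. Ratios used summed peak length with a pseudocount of 1 kb and a minimum mean of 2 kb, centred on the median gene. Sums over separately called peaks move with how much was called. Gene coordinates are those of RefSeq on GRCm38.p6, the assembly behind mm10, and start sites are those that the authors' distances imply. Named genes are the 8 factor genes, the other regulators past the size rule (up to 10) and the 3 nearest to 0. Of each marker list they are the 3 measured genes with the largest absolute ratios. Krt7, Krt19 and Ccl21a, which were not measured, were named outside this rule, as were Ttr, Ass1, Cxcr2, S100a9 and Clec4f. Some genes of the lists are not reported here and are left out of the list counts. The genes and lists were chosen with earlier results of these data known. No doublet caller was run, since no gene matrix was used. Calculations ran in Python 3.11.15 (pandas 2.3.3, numpy 2.4.6, intervals by scipy 1.17.1), figures in matplotlib 3.10.9. Overlaps were checked against bedtools 2.31.1 and ratios tested on simulated data.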

Additional observations from a re-analysis of the deposited data

How the results depend on the processing

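No paired analysis was possible because each genotype has 1 ATAC library, and no replicate could be left out. Between 5 and 7 factor genes, of 5 to 8 measured, were higher and 0 lower under the 10 other settings that gave a value. Under these settings 7.13% to 19.6% of all measured genes were higher, and 197 to 1334 genes lower. Promoter peaks alone left no factor gene at the length minimum. Foxa1, Onecut1, Onecut2 and Prox1 stayed past the size rule wherever they were measured. For Foxa1 and Onecut2 the wild-type value was 0 under each setting. Foxa2, at 0.99, ranged from 0.82 to 1.70 and passed it under 6 settings. Hnf4a fell under it, at 0.88, when all peaks within 50 kb of the gene were counted. Cebpa ranged from -0.23 to 0.33. Foxa3 was measured with no length minimum, at 1.25, and within 50 kb, at 0.49. The number of peaks was 141 in the knockout and 43 in the wild-type library within 50 kb, since that window takes in peaks of neighbouring genes. Counting a peak of the other library within 500 bp as shared gave 23.7% of knockout and 87.5% of wild-type peaks. Without scores or heights, depth limits which peaks were called, and a peak that was not called in the shallower wild-type library is not shown to be closed.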

Other observations

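The surroundings of the 8 genes, within 50 kb of each gene on both sides, held 74 knockout and 32 wild-type peaks that the authors assigned to other genes. Over the whole windows, 34 of 141 knockout peaks (24.1%) and 33 of 43 wild-type peaks (76.7%) were shared, against 49.3% of the whole knockout list and 72.4% of the whole wild-type list. Foxa1 and Onecut2 had 10 and 11 knockout peaks in these windows and 0 wild-type peaks each, with no share over all genes to set this against. The window of Prox1 held 22 knockout and 2 wild-type peaks, and that of Cebpa 22 and 15, of which 11 and 10 were shared. Near Cebpa, a peak 37.4 kb downstream of the start was present in both libraries (chromosome 7, 35156249 to 35157150 in the knockout and 35156204 to 35157118 in the wild-type library) and was assigned to the predicted gene Gm35665. In mice an enhancer at about this distance is known to act on Cebpa in blood cells. This peak was chosen after its values were seen. Upstream of the adult liver start of Hnf4a, over the antisense gene Hnf4aos, 2 regions were open in both libraries, at 163531765 to 163532653 and 163534771 to 163535682 in the knockout library.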
